A study of Homo sapiens with 16 samples.

Results

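The 10 genes described here encode the core BCL2 family regulators of apoptosis. They are BCL2, BCL2L1, MCL1, BAX, BAK1, BCL2L11, PMAIP1, BBC3, BID and BAD. They were chosen by name, and all 10 were found among the 18332 Ensembl gene identifiers of the deposited table. Their transcripts were measured by RNA-Seq in 16 samples of human breast cancer cells, 4 in each of 4 groups. MDA-MB-231 and MDA-MB-468 are ER-negative breast cancer cell lines, one of mesenchymal and one of basal epithelial character. Each line was kept for 48 hours in serum-free medium with 5 mM glucose, the control condition here called low glucose, or with 25 mM glucose, the high glucose condition that models hyperglycemia. According to the paper, cells were conditioned in low glucose beforehand. Mannitol balanced the osmolarity of the control in some of its experiments, and the paper reported no difference from mannitol in the phenotypes examined. Whether these samples had mannitol is not stated, so glucose and osmolarity cannot be told apart. Neither line carried an engineered allele or a drug treatment, and the serum-free medium was common to all groups. Routine growth medium differed between the lines (DMEM for MDA-MB-231, RPMI for MDA-MB-468), so line and growth medium cannot be told apart. The labels do not say whether the 4 samples of a group were separate cultures, and p values then measure only the spread between these samples.

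Apoptosis through mitochondria is decided by binding among the proteins of this family. The survival proteins BCL2, BCL2L1 (which encodes BCL-XL) and MCL1 hold their proapoptotic relatives in check. The effectors BAX and BAK1 (the gene for BAK) open the outer mitochondrial membrane, which releases cytochrome c and starts the caspase cascade. The BH3-only proteins BCL2L11 (BIM), PMAIP1 (NOXA), BBC3 (PUMA), BID and BAD sense stress and either occupy the survival proteins or engage the effectors. Breast cancer cells often depend on BCL-XL and MCL1. Much of the regulation lies in the proteins, through phosphorylation, cleavage and turnover, none of which a transcript count measures.

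Values are normalized reads, which are read counts divided by 1 size factor for each library. A log2 fold change is the difference of means of log2(normalized reads + 1), with its SE, and a gene was called when its limma P value adjusted over all genes tested was below 0.05. Libraries held between 14094597 and 24425916 reads, and the 10 most abundant genes took 5.66% to 6.39% of them. The lowest count of any of the 10 genes in any library was 77 reads, for BCL2 in MDA-MB-468 in low glucose. Marker transcripts matched the labelled lines. In low glucose the mesenchymal marker VIM averaged 96228 normalized reads in the MDA-MB-231 samples, against 21.5 in MDA-MB-468. The basal keratin KRT5 averaged 1.13 and 15150 in the same order. ESR1, the estrogen receptor gene, was near 0 in MDA-MB-231 (1.31 normalized reads in low glucose) and low in MDA-MB-468 (57.9).

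In MDA-MB-231, BCL2 and MCL1 fell and BAK1 and BBC3 rose in high glucose. BCL2 fell furthest, to 0.723 times its low glucose level, whereas the other 3 changed by at most 1.21-fold. In MDA-MB-468, BAD, BCL2, BAK1 and BID rose, and PMAIP1, BBC3 and BCL2L1 fell. The largest of these changes was the fall of PMAIP1 to 0.659 times its low glucose level, and the next was the rise of BAD by 1.42-fold. BCL2 and BBC3 were thus called in opposite directions in the lines, and BAK1 was called upward in both. In MDA-MB-231, 4 of the 10 genes were called, where 15.1% of all genes tested were called. In MDA-MB-468 it was 7 of 10, where 47.6% were called. With so large a share of all genes called in MDA-MB-468, the count of 7 is not a result about this family, and the description below rests on the single genes. The median log2 fold change of the 10 genes was 0.01 in both lines, against 0.00 for all genes tested in each.

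**Figure D1:**
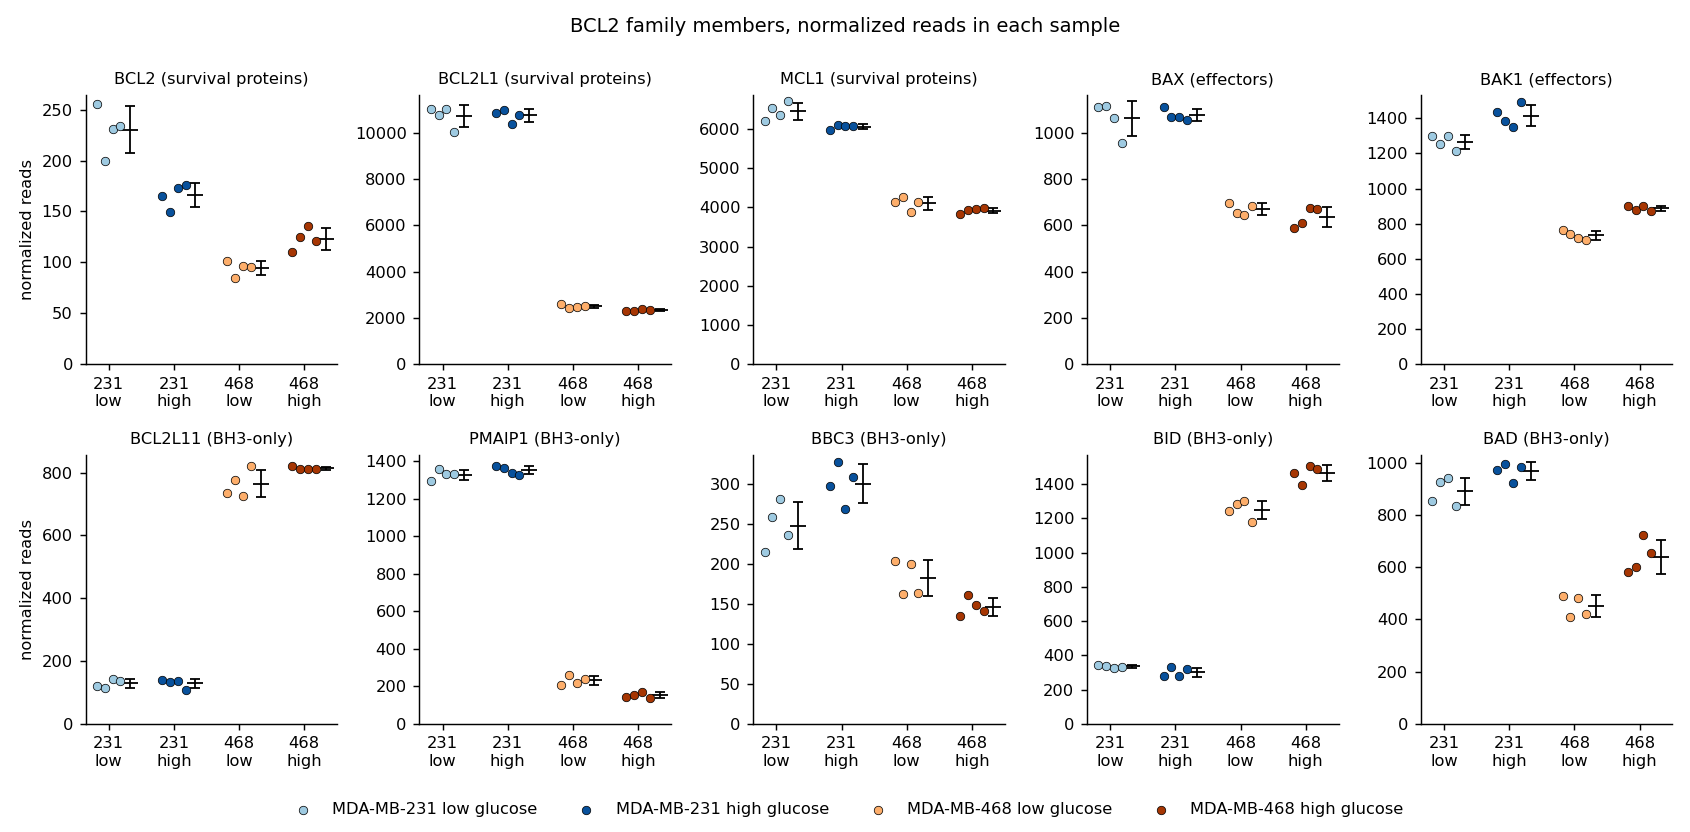
Normalized reads (vertical axis, starting at 0, with its own scale for each gene) of the 10 genes in each of the 16 samples; points are samples in 4 groups and the black marks are the group mean with 1 SD. BCL2 in high glucose sits below low glucose in MDA-MB-231 and above it in MDA-MB-468, and the PMAIP1 samples of MDA-MB-468 drop from a mean of 231.4 to one of 152.

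BCL2, the founding survival gene of the family, lies on GRCh37 chr18:60790579-60987361 on the minus strand (ENSG00000171791). In MDA-MB-231 its normalized reads were 256, 199.6, 231.3 and 234 in low glucose and 165, 149, 173 and 176 in high glucose. Every high glucose sample lay below every low glucose sample. The means were 230.3 ± 23.2 and 166 ± 11.9 (SD, n = 4 each), and the log2 fold change was -0.47 (SE 0.09, adjusted P = 0.00139, limma). In MDA-MB-468 the values were 101, 85.2, 96.3 and 95.2 in low glucose and 109.9, 125, 136 and 121 in high glucose. Here every high glucose sample lay above every low glucose sample. The means were 94.5 ± 6.74 and 123 ± 10.8, and the log2 fold change was 0.38 (SE 0.11, adjusted P = 0.00743, limma). Both calls held under every alternative run for them.

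The region around the BCL2 start is shown because this gene moved in opposite directions in the lines. The sequence runs from 250 bases before to 50 bases after the RefSeq start, on GRCh38.p14 chr18:63319720-63320019, minus strand. Capitals mark matches to TGACG (the core of the element bound by ATF4 and other CREB/ATF factors), CACGTG (the E-box of MYC and its relatives), CCAAT and GGGCGG (the GC box), each searched on both strands.
BCL2 promoter: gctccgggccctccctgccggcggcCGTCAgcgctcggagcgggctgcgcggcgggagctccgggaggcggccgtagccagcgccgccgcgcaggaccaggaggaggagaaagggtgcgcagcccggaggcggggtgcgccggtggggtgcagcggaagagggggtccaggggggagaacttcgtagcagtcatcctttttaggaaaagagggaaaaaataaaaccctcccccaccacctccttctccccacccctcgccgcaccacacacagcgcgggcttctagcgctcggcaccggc
This window held 1 TGACG, on the other strand with its first base at position -225 from the start, and none of the other 3 motifs. Of all 35116 RefSeq promoter windows, 24.6% held TGACG, 7.26% CACGTG, 34.6% CCAAT and 45.0% GGGCGG. A match is a description of letters and not evidence of binding.

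BCL2L1 was the most abundant survival transcript in MDA-MB-231 and did not pass the test there. Its normalized reads were 11042, 10765, 11029 and 10046 in low glucose and 10843, 11000.1, 10374 and 10787 in high glucose. The groups overlapped, and the log2 fold change was 0.00 with a 95% interval from -0.06 to 0.07. In MDA-MB-468 the values were 2585, 2449, 2490.1 and 2499 in low glucose and 2293, 2313, 2405 and 2353 in high glucose, with no overlap. The fall was small, at -0.10 on the log2 scale (SE 0.03, adjusted P = 0.0180, limma). It did not pass without low glucose replicate 1 (adjusted P = 0.0644) or without high glucose replicate 1 (adjusted P = 0.0561).

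MCL1, the short-lived survival protein that NOXA binds, was lower in high glucose by -0.09 in MDA-MB-231 (SE 0.03, adjusted P = 0.0495, limma). Its values ranged from 6209 to 6715 in low glucose and from 5974 to 6103 in high glucose, without overlap. This call was the least stable of the set and was lost in 16 of 21 alternatives. In MDA-MB-468 MCL1 ranged from 3874 to 4261 in low and from 3820 to 3974 in high glucose, and the log2 fold change of -0.07 was not past the threshold (adjusted P = 0.106, limma). It passed under quantile scaling (-0.11, adjusted P = 0.00758) and without low glucose replicate 3 (-0.09, adjusted P = 0.0279). The annotated span of MCL1, introns included, overlaps ADAMTSL4 on the opposite strand. The study names a stranded library kit for its tumor samples and gives no kit for the cell lines. Whether the counting used strand is not given in the sources used here, so whether their reads were kept apart is not known. ADAMTSL4 had far fewer normalized reads in MDA-MB-231, at 65.1 ± 9.79 in low and 46.0 ± 5.03 in high glucose. It was called lower there, as MCL1 was (log2 fold change -0.49, adjusted P = 0.0383, limma). What the overlap adds to the MCL1 value was not tested.

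The effectors differed from each other. BAK1 (GRCh37 chr6:33540324-33548070) rose in both lines. In MDA-MB-231 its values were 1298, 1255, 1299.7 and 1216 in low glucose and 1435, 1383, 1353 and 1493 in high glucose. In MDA-MB-468 they were 765, 742, 718 and 707 in low glucose and 902, 878, 899.6 and 874 in high glucose. No high glucose sample of either line reached down to the low glucose samples of its line. The rise was 0.16 in MDA-MB-231 (SE 0.04, adjusted P = 0.0144, limma) and 0.28 in MDA-MB-468 (SE 0.04, adjusted P = 4.46e-05, limma). Without high glucose replicate 4, which was the highest, the MDA-MB-231 rise was 0.13 and did not pass (adjusted P = 0.0577).

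BAX was not called in either line. Its values ranged from 957 to 1116 in low and from 1056 to 1114 in high glucose in MDA-MB-231. In the other line they were 646 to 698 in low and 587 to 676 in high glucose. The groups overlapped in both lines. The log2 fold change was 0.02 in MDA-MB-231 (95% interval -0.08 to 0.12) and -0.08 in MDA-MB-468 (95% interval -0.19 to 0.04). BAX has the shortest transcript of the 10 genes, at 795 bases, and after a correction of the values for transcript length its fold change in MDA-MB-468 was -0.18 with an adjusted P of 0.00599.

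Among the BH3-only genes, PMAIP1 and BBC3 fell together in MDA-MB-468. PMAIP1 encodes NOXA, which binds MCL1 and promotes its degradation. In MDA-MB-468 its normalized reads were 207, 259.9, 218 and 241 in low glucose and 145, 155, 172 and 137 in high glucose. All 4 high glucose samples lay below the lowest low glucose sample. With means of 231.4 ± 23.6 and 152 ± 15.1, the log2 fold change was -0.60 (SE 0.09, adjusted P = 5.75e-05, limma). In MDA-MB-231 the values were 1294, 1361, 1331 and 1330.4 in low glucose and 1374, 1367, 1340.3 and 1328 in high glucose. These groups overlapped, and the log2 fold change of 0.03 had a 95% interval from -0.05 to 0.10.

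BBC3 encodes PUMA, a potent BH3-only protein. Its values in MDA-MB-468 were 203, 163, 200.4 and 163 in low glucose and 135, 161, 149 and 141 in high glucose. The groups stood apart, though narrowly, with 163 as the lowest low glucose value and 161 as the highest high glucose value. The log2 fold change was -0.31 (SE 0.10, adjusted P = 0.0156, limma), and it did not pass without low glucose replicate 1 (-0.26, adjusted P = 0.0594) or replicate 3 (-0.26, adjusted P = 0.0570). In MDA-MB-231 the values were 214, 259, 282 and 236 in low glucose and 298, 327, 269 and 308 in high glucose. One low glucose sample lay above the lowest high glucose sample. The log2 fold change was 0.28 (SE 0.09, adjusted P = 0.0345, limma), and the call was lost in 9 of 21 alternatives, with adjusted P up to 0.122 without low glucose replicate 1.

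The regions around the RefSeq starts of these genes are shown for comparison, with capitals marking the same 4 motifs. They lie on GRCh38.p14 at chr18:59899746-59900045, plus strand, for PMAIP1 and chr19:47232618-47232917, minus strand, for BBC3.
PMAIP1 promoter: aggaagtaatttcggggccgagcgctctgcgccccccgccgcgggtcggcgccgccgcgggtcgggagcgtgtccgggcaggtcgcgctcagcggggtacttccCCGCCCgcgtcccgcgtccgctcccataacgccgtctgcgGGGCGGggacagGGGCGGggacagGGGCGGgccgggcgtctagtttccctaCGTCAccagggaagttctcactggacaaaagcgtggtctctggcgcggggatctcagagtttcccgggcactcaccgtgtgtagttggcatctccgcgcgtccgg
BBC3 promoter: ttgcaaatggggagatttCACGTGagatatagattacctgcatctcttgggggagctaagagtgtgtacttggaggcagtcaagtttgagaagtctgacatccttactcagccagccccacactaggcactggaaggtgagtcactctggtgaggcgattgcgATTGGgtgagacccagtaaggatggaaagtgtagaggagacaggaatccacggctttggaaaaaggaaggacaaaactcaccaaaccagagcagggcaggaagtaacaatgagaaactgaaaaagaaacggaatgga
The windows of PMAIP1 and BBC3 shared none of the 4 motifs. Whether any motif bears on the fall of either gene in MDA-MB-468 was not tested. PMAIP1 held 4 GC boxes and 1 TGACG (other strand, position -55), with a GC content of 71.3%. BBC3 held 1 CACGTG (position -232) and 1 CCAAT (other strand, position -87), with a GC content of 48%.

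BAD and BID rose in MDA-MB-468. BAD encodes a BH3-only protein that survival kinases hold inactive by phosphorylation and that links glucose metabolism to apoptosis. Its values there were 489, 409, 483 and 419 in low glucose and 579, 599, 722 and 655 in high glucose. The lowest high glucose sample was well above the highest low glucose sample. With means of 450.1 ± 41.6 and 639 ± 64.2, the log2 fold change was 0.50 (SE 0.07, adjusted P = 3.34e-05, limma). In MDA-MB-231 the values were 855, 927, 942 and 835 in low glucose and 972, 994, 920.5 and 984 in high glucose, and the groups overlapped. The log2 fold change there was 0.12 (95% interval 0.02 to 0.22, adjusted P = 0.102, limma).

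The annotated span of BAD overlaps GPR137 on the opposite strand, and whether reads from their shared span were kept apart is not known. In MDA-MB-468, GPR137 had 758 ± 76.3 normalized reads in low and 708 ± 46.3 in high glucose. Its log2 fold change of -0.09 (adjusted P = 0.265, limma) pointed the other way from that of BAD and did not pass. The BAD window on GRCh38.p14 chr11:64284655-64284954, minus strand, is shown because this gene had the largest rise.
BAD promoter: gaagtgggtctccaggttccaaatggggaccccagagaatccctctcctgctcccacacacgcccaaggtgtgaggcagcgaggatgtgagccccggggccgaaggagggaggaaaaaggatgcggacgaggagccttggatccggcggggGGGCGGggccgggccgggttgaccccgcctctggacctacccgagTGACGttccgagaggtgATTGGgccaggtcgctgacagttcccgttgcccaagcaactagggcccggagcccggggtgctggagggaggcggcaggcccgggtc
It held 1 TGACG (position -54), 1 CCAAT (other strand, position -37) and 1 GC box (position -99). BAD has another RefSeq start, from which the TGACG lies at position -93, the CCAAT at -76 and the GC box at -138.

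BID encodes the BH3-only protein that caspase-8 cleaves, which joins the death receptor pathway to mitochondria. In MDA-MB-468 its values were 1245, 1282, 1299.7 and 1179 in low glucose and 1467, 1397, 1504 and 1489 in high glucose. All high glucose samples were higher. The log2 fold change was 0.23 (SE 0.04, adjusted P = 0.000218, limma). In MDA-MB-231 the values were 344, 339, 329 and 330.03 in low glucose and 279, 329, 281 and 318 in high glucose, with overlap, and the log2 fold change of -0.16 did not pass (adjusted P = 0.144, limma).

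BCL2L11 encodes BIM, an activator of BAX and BAK. It was not called in either line. In MDA-MB-231 it ranged from 114 to 143 in low glucose and from 108 to 138 in high glucose, with a log2 fold change of 0.00 (95% interval -0.23 to 0.23). In MDA-MB-468 it ranged from 726 to 822 and from 810.3 to 820.5, with a log2 fold change of 0.09 (95% interval -0.01 to 0.19, adjusted P = 0.118, limma). With the correction for transcript length this rise was 0.12 and passed (adjusted P = 0.0293), and it passed without low glucose replicate 4 (0.13, adjusted P = 0.0388). The gene overlaps MIR4435-2HG on the opposite strand, and whether reads from their shared span were kept apart is not known. MIR4435-2HG had 280.4 ± 18.1 normalized reads in low and 251 ± 7.88 in high glucose in MDA-MB-468. In MDA-MB-231 it averaged 603.3 in low and 552.6 in high glucose, above BCL2L11 itself there (128.8 and 128.9). What the overlap adds to the BCL2L11 level of either line, and so to the line difference, was not tested.

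**Figure D2:**
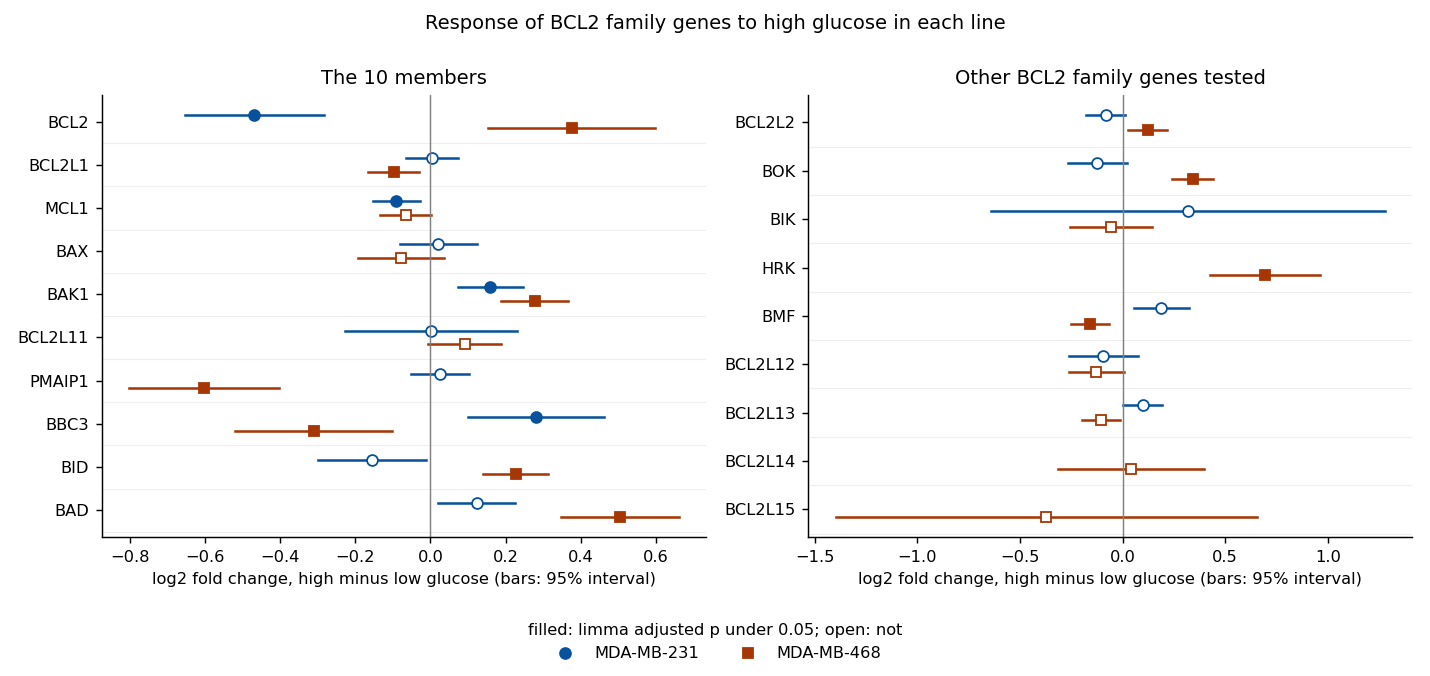
Log2 fold change, high minus low glucose, with its 95% interval (horizontal axis) for the 10 genes (left) and the other BCL2 family genes tested (right), in MDA-MB-231 (circles) and MDA-MB-468 (squares); filled symbols passed the limma threshold. BCL2 lies at -0.47 and 0.38, BBC3 at 0.28 and -0.31, and PMAIP1 at 0.03 and -0.60.

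High and low glucose samples did not overlap for 3 of the 10 genes in MDA-MB-231, where 18.7% of all genes tested had no overlap, and for 7 of 10 in MDA-MB-468, where 42.5% had none. In MDA-MB-231 the 3 were BCL2, MCL1 and BAK1. BBC3 was the gene called there whose groups overlapped. By direction, 2 of 10 were called higher and 2 lower in MDA-MB-231, where 5.71% and 9.37% of all genes were. In MDA-MB-468 4 were higher and 3 lower, where 24.9% and 22.7% were.

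Whether the lines differed in their response was tested directly as the interaction of line and glucose over all 16 samples. The difference passed for 5 of the 10 genes, where 30.9% of all genes tested passed. It was positive for 3 and negative for 2, where 17.0% and 13.9% of all genes were. BCL2 had the largest difference, at 0.84 on the log2 scale (MDA-MB-468 minus MDA-MB-231, SE 0.13, adjusted P = 8.88e-05, limma). It was followed by PMAIP1 at -0.63 (SE 0.10, adjusted P = 0.000102) and BBC3 at -0.59 (SE 0.14, adjusted P = 0.00368). BID and BAD both differed by 0.38 (adjusted P = 0.000708 and 0.00792). These 5 differences passed in every alternative run for them. The other 5 genes did not pass. The interval for MCL1 ran from -0.06 to 0.11, for BAK1 from 0.01 to 0.23, for BCL2L1 from -0.19 to -0.01, for BAX from -0.26 to 0.06 and for BCL2L11 from -0.15 to 0.33. BAK1 passed without MDA-MB-231 high glucose replicate 4 (0.14, adjusted P = 0.0399), and BCL2L1 passed under quantile scaling (-0.15, adjusted P = 0.00442).

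All 10 genes differed between MDA-MB-468 and MDA-MB-231 in low glucose, where 85.4% of all genes tested differed, and all 10 in high glucose, where 85.2% did. The groups of the lines did not overlap for any of the 10 genes at either glucose level, where 80.5% of all genes in low and 79.9% in high glucose had no overlap. These shares are close to complete for all genes, so the count says nothing particular about the family. BCL2L11 and BID were higher in MDA-MB-468, where 45.0% of all genes in low and 44.6% in high glucose were higher. The other 8 genes were lower in MDA-MB-468, where 40.4% and 40.6% of all genes were.

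BCL2L11 was 5.92-fold higher in MDA-MB-468 in low glucose (log2 difference 2.57, SE 0.08, adjusted P = 3.95e-15, limma), and BID was 3.72-fold higher (1.90, SE 0.05, adjusted P = 5.19e-16). PMAIP1 was lower by -2.52 (SE 0.07, adjusted P = 5.31e-16) and BCL2L1 by -2.10 (SE 0.03, adjusted P = 8.95e-20). The differences of BCL2 (-1.27), BAD (-0.98), BAK1 (-0.79), BAX (-0.66), MCL1 (-0.65) and BBC3 (-0.44) were smaller. In high glucose the PMAIP1 difference was wider, at -3.15, and so was that of BBC3, at -1.03. That of BCL2 was narrower, at -0.43, and that of BAD was -0.60. BID was 2.28 and BCL2L11 2.66 higher on the log2 scale.

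**Figure D3:**
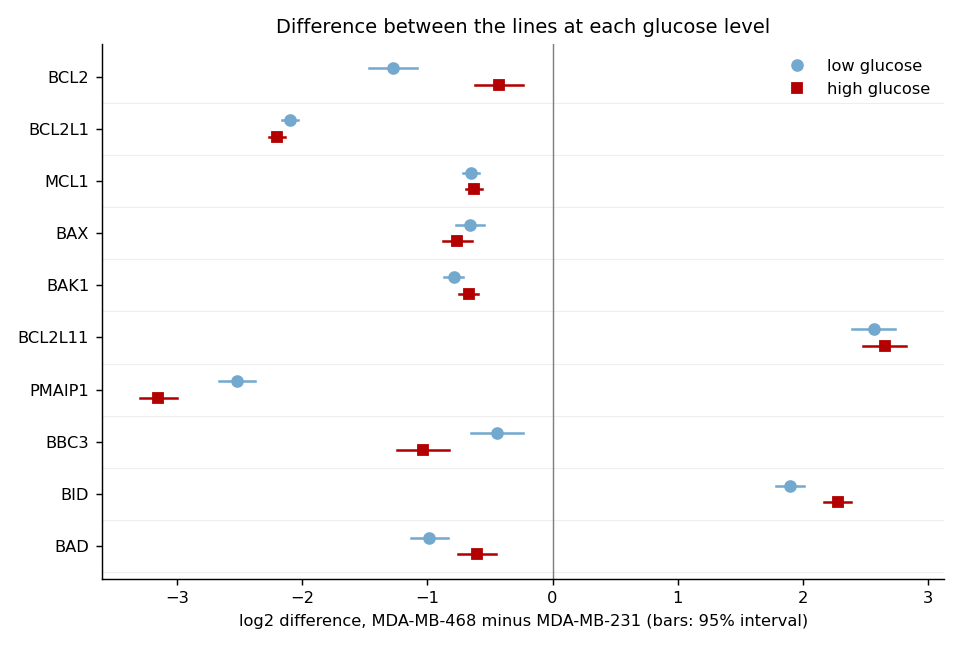
Log2 difference between the lines, MDA-MB-468 minus MDA-MB-231, with its 95% interval (horizontal axis) for the 10 genes in low glucose (circles) and high glucose (squares); filled symbols passed the limma threshold, which all did. BCL2L11 (2.57 and 2.66) and BID (1.90 and 2.28) lie to the right of 0, and the other 8 genes lie to the left.

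Levels of different genes were compared as reads per kilobase of transcript per library total, scaled as RPKM, with 1 annotated transcript length for each gene. In MDA-MB-231 in low glucose BCL2L1 was highest, at 240.1 ± 9.28 RPKM (SD, n = 4), followed by MCL1 at 94.1 ± 3.79. BAX (77.0 ± 5.14), BAD (55.2 ± 3.24), PMAIP1 (40.4 ± 1.03) and BAK1 (33.7 ± 0.862) came next, each apart from its neighbors. BID at 8.88 ± 0.181 and BBC3 at 7.75 ± 0.908 overlapped. BCL2 (1.93 ± 0.186) and BCL2L11 (1.46 ± 0.157) were lowest. In high glucose BCL2, at 1.42 ± 0.102, overlapped BCL2L11, at 1.48 ± 0.161.

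In MDA-MB-468 MCL1 at 66.1 ± 2.61 RPKM and BCL2L1 at 61.9 ± 1.48 RPKM overlapped at the top of the order in low glucose. BAX at 53.7 ± 2.11 and BID at 36.6 ± 1.43 followed, so BID stood above BAD and BAK1 in this line and below them in MDA-MB-231. BAD (30.8 ± 2.83), BAK1 (21.5 ± 0.714) and BCL2L11 (9.55 ± 0.572) were next. PMAIP1 (7.75 ± 0.785) overlapped BBC3 (6.28 ± 0.768), and BCL2 was lowest at 0.873 ± 0.0637. In high glucose BAD rose to 42.8 ± 4.10 RPKM and then overlapped BAX at 49.8 ± 3.26 and BID at 41.9 ± 1.05. PMAIP1 and BBC3 still overlapped, at 4.99 ± 0.4997 and 4.94 ± 0.401. BCL2 was therefore the scarcest survival transcript in every group, although its fold changes were the largest among the survival genes.

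**Figure D4:**
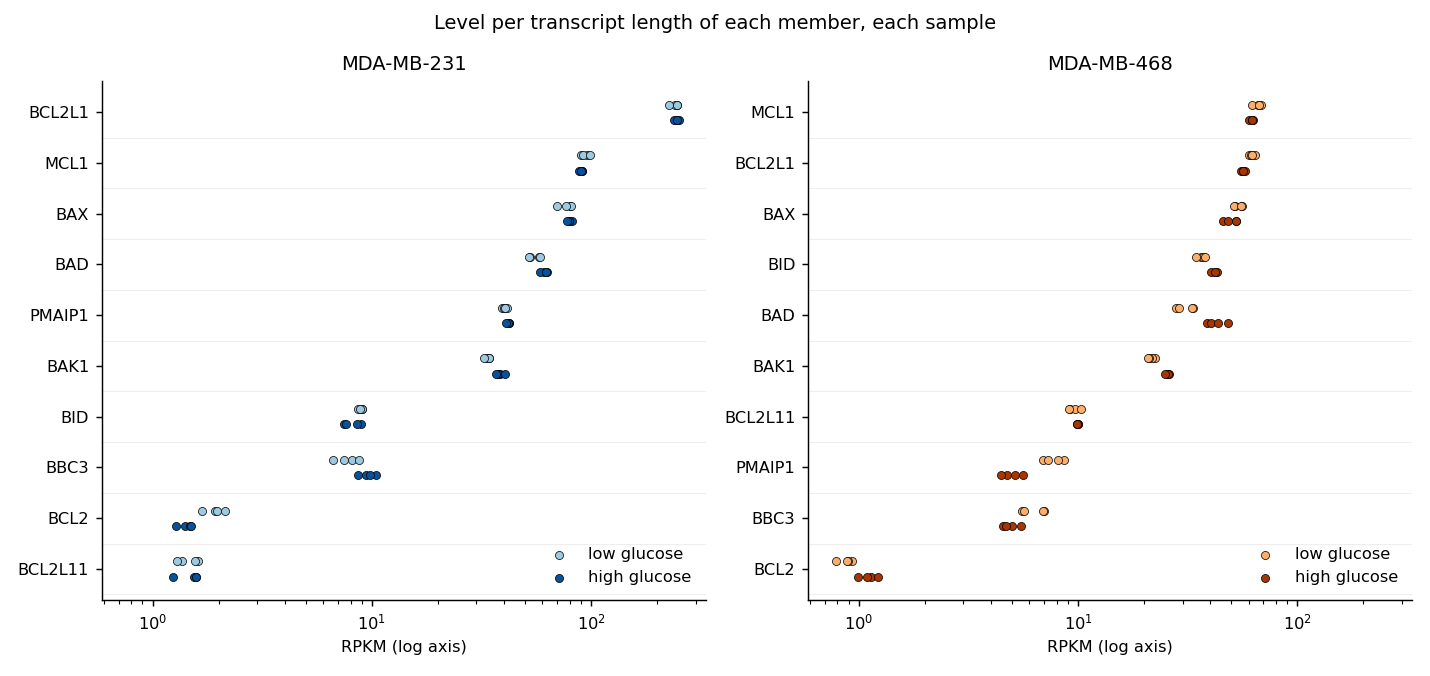
Level of each of the 10 genes per transcript length (RPKM, logarithmic horizontal axis) in each sample of MDA-MB-231 (left) and MDA-MB-468 (right), in low and high glucose, with genes ordered by their low glucose mean in that line. BCL2L1 stands alone at 240.1 RPKM in MDA-MB-231, whereas in MDA-MB-468 it overlaps MCL1 in low glucose and lies just below it in high glucose.

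Summed by role as a description with no test, the 3 survival transcripts reached 336 ± 6.18 RPKM in low and 336.5 ± 5.10 RPKM in high glucose in MDA-MB-231. In MDA-MB-468 the sums were 129 ± 2.87 and 119.5 ± 1.89 RPKM. The 5 BH3-only transcripts summed to 114 ± 4.64 and 122 ± 3.24 RPKM in MDA-MB-231 and to 91.0 ± 3.11 and 105 ± 5.04 RPKM in MDA-MB-468. The ratio of BH3-only to survival transcripts was 0.338 ± 0.0114 and 0.363 ± 0.00421 in MDA-MB-231 and 0.706 ± 0.0358 and 0.875 ± 0.0334 in MDA-MB-468. BCL2L1 and MCL1 make up nearly all of the survival sum, so the changes of BCL2 hardly enter this ratio.

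Of the transcript pairs compared, PMAIP1 per MCL1 and BCL2L11 per BCL2L1 are given as examples of binding partners. They differed between the lines in opposite directions, which restates the line differences of these genes given above. PMAIP1 transcripts per MCL1 transcript, by RPKM, were 0.429 ± 0.0113 in low and 0.465 ± 0.0101 in high glucose in MDA-MB-231. They were 0.117 ± 0.00954 and 0.0807 ± 0.00789 in MDA-MB-468. BCL2L11 per BCL2L1 was higher in MDA-MB-468, at 0.00608 ± 0.000778 and 0.00606 ± 0.000685 in MDA-MB-231 and 0.154 ± 0.0106 and 0.176 ± 0.00445 in MDA-MB-468. These ratios concern transcripts only, and protein was not measured.

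The 3 genes whose pattern over the 16 samples was closest to that of PMAIP1, which had the largest change past the threshold, were PHTF1, NTAN1 and NCOA7. Likeness was the root mean square difference of log2 values centered within each line, and it was 0.0698, 0.0749 and 0.0753 among 17115 genes. Their log2 fold changes in MDA-MB-468 were -0.60, -0.52 and -0.62, against -0.60 for PMAIP1. The 3 genes were picked for this likeness, so similar fold changes follow from the choice.

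Other genes of the family were 11 in number, of which 9 were found, and BCL2A1 and BCL2L10 were not analysed here. In MDA-MB-231, 0 of the 6 tested passed (limma), 2 had an unadjusted P below 0.05, and edgeR and DESeq2 each called 1, BMF. BMF, a BH3-only gene, had a log2 fold change of 0.19 there (adjusted P = 0.0558). In MDA-MB-468, 3 of 9 rose and 1 fell, where 24.9% of all genes were higher and 22.7% lower. BOK, an effector relative of BAX and BAK, rose from 708 ± 16.1 to 897 ± 50.1 normalized reads (log2 fold change 0.34, SE 0.05, adjusted P = 1.58e-05, limma). HRK, a BH3-only gene, rose from 58.4 ± 7.62 to 94.7 ± 5.18 (0.69, SE 0.13, adjusted P = 0.000264). BCL2L2, which encodes the survival protein BCL-W, rose by 0.12 (SE 0.05, adjusted P = 0.0349). The rise of BCL2L2 failed the threshold in 10 of 21 alternatives, among them the replicate block (adjusted P = 0.0538), quantile scaling (0.0527) and DESeq2 (0.111). It was also lost without low glucose replicate 1, 3 or 4 or high glucose replicate 1, 2 or 4 (0.0606 to 0.0860). BMF fell from 788 ± 29.6 to 705 ± 13.7 (-0.16, SE 0.04, adjusted P = 0.00661).

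HRK was at 0 reads in all 4 low glucose samples of MDA-MB-231 and at no more than 1 read in the high glucose samples, under the 3-read floor that stood at 0.123 to 0.192 CPM in the low glucose libraries. BCL2L14 and BCL2L15 were at most 3 and 5 reads in that line and were not tested there. BIK, another BH3-only gene, was at 5.92 ± 2.26 normalized reads in the low glucose samples of MDA-MB-231, against 127 ± 8.67 in those of MDA-MB-468. Its change with glucose passed in neither line (0.32 with a 95% interval from -0.64 to 1.28, and -0.06 with an interval from -0.25 to 0.14). BCL2L12 (-0.09 and -0.13), BCL2L13 (0.10 and -0.11), BCL2L14 (0.04 in MDA-MB-468) and BCL2L15 (-0.37 in MDA-MB-468) did not pass. The response differed between lines for BOK (0.46, adjusted P = 0.000825), BCL2L2 (0.21, adjusted P = 0.00403), BMF (-0.35, adjusted P = 0.00319) and BCL2L13 (-0.20, adjusted P = 0.0121).

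Downstream of the mitochondria, 3 of 16 genes fell in MDA-MB-231 and the other 13 did not pass, whereas 4 rose and 8 fell in MDA-MB-468 (limma). Of all genes, 15.1% were called in MDA-MB-231 (5.71% higher, 9.37% lower) and 47.6% in MDA-MB-468 (24.9% higher, 22.7% lower), and the counts of the next lists are read against the same shares. The median log2 fold change of this list was -0.01 and -0.18. BIRC5, which encodes the apoptosis inhibitor and mitotic protein survivin, fell from 1467 ± 54.6 to 1036 ± 48.4 normalized reads in MDA-MB-231 (-0.50, adjusted P = 4.75e-07) and rose from 1054 ± 52.1 to 1876 ± 109.8 in MDA-MB-468 (0.83, adjusted P = 7.89e-10). It moved in the directions that BCL2 did. BIRC3, an inhibitor of apoptosis and NF-kB target, fell in MDA-MB-468 from 1067 ± 49.2 to 406 ± 34.5 (-1.39, adjusted P = 4.09e-11). APAF1, the scaffold of the apoptosome, fell in both lines (-0.18 and -0.37, adjusted P = 0.0173 and 0.000477). CYCS, the gene of cytochrome c, fell in MDA-MB-231 (-0.14, adjusted P = 0.0417) and rose in MDA-MB-468 (0.10, adjusted P = 0.0110). Its call in MDA-MB-231 was lost in 11 of 21 alternatives (adjusted P up to 0.143), and that of APAF1 there in 4 of 21 (up to 0.103). In MDA-MB-468 the CYCS rise did not pass under quantile scaling (0.05, adjusted P = 0.120) or in the model over all 16 samples (adjusted P = 0.0528). VDAC2, a channel of the outer mitochondrial membrane that binds BAK, rose in MDA-MB-468 by 0.19 (adjusted P = 0.000145). CASP9, the initiator caspase of the apoptosome, did not pass in either line (0.02 and -0.19). XIAP, a caspase inhibitor, fell in MDA-MB-468 (-0.26, adjusted P = 0.000913) and had a value of 0.11 in MDA-MB-231 (adjusted P = 0.125).

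In the death receptor arm, 2 of 11 genes rose in MDA-MB-231 and the other 9 did not pass, and 3 rose and 4 fell in MDA-MB-468, with medians of 0.07 and -0.12. The background was 15.1% and 47.6% of all genes called. The rises in MDA-MB-231 were of FADD, the adaptor (0.17, adjusted P = 0.0171), and of TNFRSF10B, a TRAIL receptor (0.10, adjusted P = 0.0303). They were lost in 2 and 7 of 21 alternatives. TNFRSF10B fell in MDA-MB-468 (-0.32, adjusted P = 0.000150), as did CASP8, whose product cleaves BID (-0.33, adjusted P = 0.000247). TNFSF10, the TRAIL ligand, rose there from 289 ± 17.0 to 412 ± 6.96 normalized reads (0.51, adjusted P = 2.84e-06), and RIPK1, a death domain kinase, rose by 0.30 (adjusted P = 0.000186).

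Of the genes that regulate the family, 2 of 16 rose and 4 fell in MDA-MB-231, and 4 rose and 5 fell in MDA-MB-468, with medians of -0.07 and -0.06. The 9 of 16 called in MDA-MB-468 are near the 47.6% of all genes. ATF4, a stress factor that can induce PMAIP1 and BBC3, rose in both (0.21 and 0.23, adjusted P = 6.63e-05 and 4.50e-06). DDIT3, which encodes CHOP and can induce BBC3 and BCL2L11, rose in MDA-MB-231 from 626 ± 68.3 to 731 ± 55.8 (0.23, adjusted P = 0.0406), a call lost in 10 of 21 alternatives (adjusted P up to 0.122). It fell in MDA-MB-468 from 180.2 ± 8.21 to 104 ± 11.7 (-0.79, adjusted P = 5.35e-06). Whether any of these regulators acted on the 10 genes in these cells was not tested. E2F1, a cell cycle factor, fell in MDA-MB-231 (-0.59, adjusted P = 5.45e-07) and rose in MDA-MB-468 (0.23, adjusted P = 0.000673). TP73 fell in MDA-MB-231 from 134 ± 14.8 to 79.1 ± 7.95 (-0.75, adjusted P = 0.000199). TP63 fell in MDA-MB-468 from 62.9 ± 5.84 to 20.5 ± 3.94 (-1.59, adjusted P = 2.59e-06). FOXO3, a factor that can induce BCL2L11 and BBC3, rose in MDA-MB-468 (0.15, adjusted P = 0.000893) and was at -0.08 in MDA-MB-231 (adjusted P = 0.243).

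The stress response genes, a list that holds CDKN1A and MDM2, moved in both directions. In MDA-MB-231, 3 of 19 rose and 3 fell, and in MDA-MB-468, 6 of 20 rose and 6 fell, with medians of 0.07 and 0.10. Against 24.9% higher and 22.7% lower among all genes of MDA-MB-468, the counts of that line are close to the background. Among all genes of MDA-MB-231, 5.71% were higher and 9.37% lower, and 3 of 19 in each direction lies above those shares. CDKN1A, the cell cycle inhibitor p21, fell in MDA-MB-231 (-0.19, adjusted P = 0.000811). In MDA-MB-468 it rose from 547 ± 45.1 to 971 ± 71.8 (0.83, adjusted P = 1.97e-08), opposite to PMAIP1 and BBC3 in the same cells. BTG2, an antiproliferative gene, rose there from 89.4 ± 9.82 to 156 ± 11.03 (0.80, adjusted P = 1.06e-05), and it did not pass in the model over all 16 samples (adjusted P = 0.141). MDM2, a ubiquitin ligase, fell in both lines (-0.15 and -0.35, adjusted P = 0.0214 and 2.10e-05). SESN2, which is also an ATF4 target, rose in MDA-MB-231 (0.29, adjusted P = 0.000355) and fell in MDA-MB-468 (-0.36, adjusted P = 5.88e-05). PHLDA3 rose in MDA-MB-231 (0.26, adjusted P = 0.0452), CCNG1 fell there (-0.20, adjusted P = 0.00697), and TP53INP1 fell in MDA-MB-468 (-0.56, adjusted P = 5.40e-08). In MDA-MB-231 the calls of PHLDA3 and MDM2 were lost in 12 and 8 of 21 alternatives (adjusted P up to 0.144 and 0.113).

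**Figure D5:**
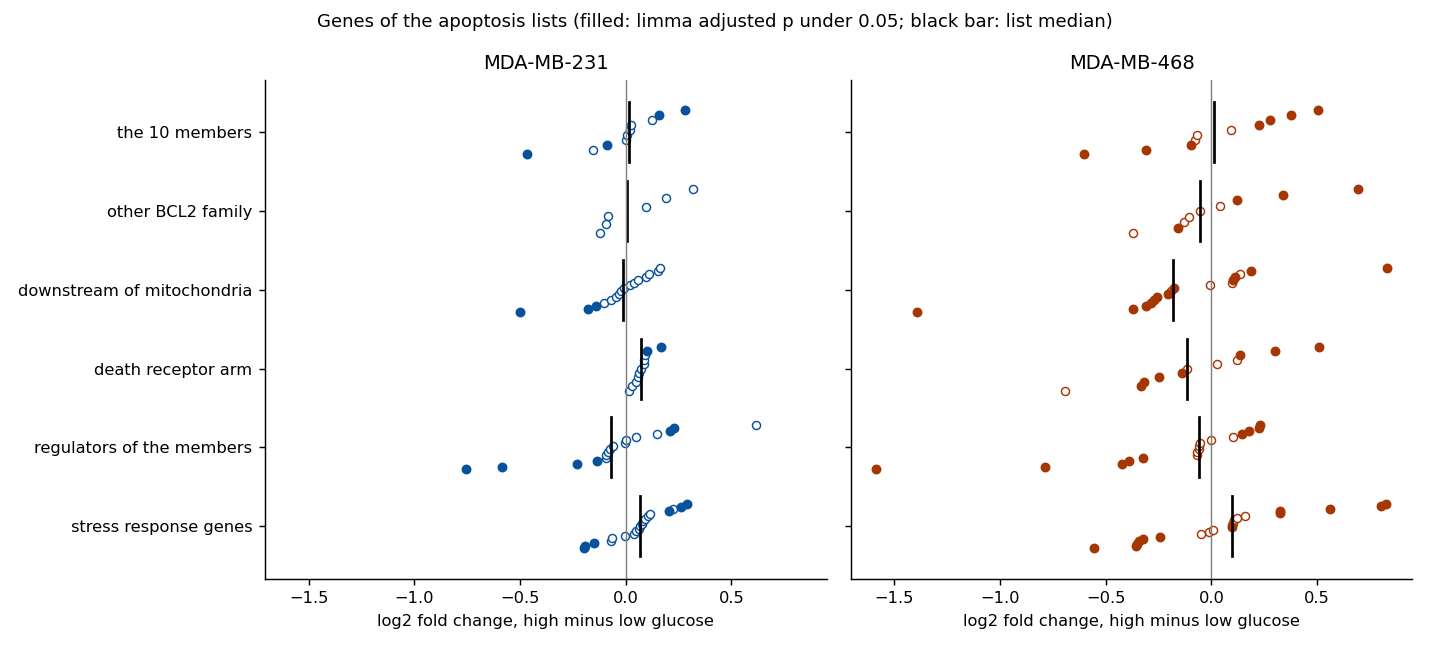
Log2 fold change, high minus low glucose (horizontal axis), of every tested gene of the 10 and of the wider apoptosis lists in MDA-MB-231 (left) and MDA-MB-468 (right); filled points passed the limma threshold and black bars are list medians. Most points of MDA-MB-231 lie close to 0, whereas the lists of MDA-MB-468 spread in both directions, from -1.59 (TP63) to 0.83 (BIRC5 and CDKN1A).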

How the data were processed

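RNA was measured by RNA-Seq in 16 samples, 4 in each group. The deposited signal values are normalized gene counts. In each library they are whole numbers times 1 step, read here as counts divided by 1 size factor. Whole reads were recovered for 100% of values, within 0.001 of a read. The study's methods describe CPM values with edgeR normalization factors, and how the deposited values were scaled is not stated. Of the 18332 identifiers, 17647 matched a gene symbol. The study's methods describe trimming, alignment to hg19, DESeq2 and edgeR, whereas the processing notes name hg38 as the build; the counting program and its use of strand are not given in the sources used here. Gene coordinates are GRCh37 (GENCODE), and promoter windows are RefSeq GRCh38.p14. Of the 10 genes, 9 had at least 1 window and MCL1 had none.

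Genes that reached 0.5 CPM in any 2 samples of a fit were tested with limma 3.58.1 (R 4.3.3) on log2(value + 1), with a trended prior, two-sided, and Benjamini-Hochberg adjustment over all genes tested. Each line was fitted alone (8 samples); line differences and the interaction came from 1 model over 16 samples. A fold change on this scale understates that of low genes. Counts (edgeR 4.0.16, DESeq2 1.42.0), pseudocounts, filters, scalings, length correction and left-out samples were alternatives; with edgeR on the recovered reads, MDA-MB-231 had 2343 called genes (2245 by limma) and MDA-MB-468 had 7618 (7495 by limma). The code was tested on simulated data. The 10 genes and all lists were chosen with earlier results of these data known. Named were the 10 genes, the other family genes, 11 fixed pathway genes (of which 2 are not reported here) and, per wider list and line, the 2 largest rises and falls among called genes at a mean of 0.5 CPM or more. The 3-read floor was 0.123 to 0.213 CPM, and it covers counting error only.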

Additional observations from a re-analysis of the deposited data

Results flagged for a closer look

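Among 71 groups of 4 samples of the BCL2 family genes, 2 held a sample far from the other 3, and chance alone would mark about 1 group in 20. BCL2L11 was 108 normalized reads in MDA-MB-231 high glucose replicate 4, against 134 to 138 in the others. BMF was 832 normalized reads in MDA-MB-468 low glucose replicate 1, against 771 to 774 in the others.

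The response to high glucose differed between the lines (interaction test, limma) for the genes below. All values here are log2 differences of response, MDA-MB-468 minus MDA-MB-231. Many of the pathway genes were named for a large response in 1 line, so their number is not set against that of all genes. Of the 10 genes, BCL2 differed by 0.84, BID and BAD by 0.38, PMAIP1 by -0.63 and BBC3 by -0.59. Among the other family genes the difference was 0.46 for BOK, 0.21 for BCL2L2, -0.35 for BMF and -0.20 for BCL2L13. Downstream of mitochondria it was 1.33 for BIRC5, 0.24 for CYCS, 0.22 for VDAC2, -0.37 for XIAP and -1.56 for BIRC3. In the death receptor arm it was 0.42 for TNFSF10, 0.27 for RIPK1, -0.28 for FADD, -0.39 for CASP8 and -0.42 for TNFRSF10B. For the regulators it was 0.93 for TP73, 0.82 for E2F1, 0.22 for FOXO3, -1.02 for DDIT3 and -2.20 for TP63. For the stress response genes it was 1.02 for CDKN1A, 0.30 for CCNG1, -0.21 for MDM2, -0.65 for SESN2 and -0.76 for TP53INP1. The difference of MDM2 was lost in 11 of 28 alternatives and that of TNFSF10 in 7 of 28.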

How the results depend on the processing

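Over the 10 genes, all comparisons and all alternatives, 1046 values kept their direction and their side of the threshold, 30 lost a call, 9 gained one and 15 changed sign. The count of the 10 genes called in MDA-MB-231, 4 as reported, was 2 with no filter, 2 in the model over all 16 samples, 2 with the replicate block and 2 with length correction and replicate block, and 1 to 3 with a sample left out (1 without high glucose replicate 4). In the 4 settings with all samples that gave 2, MCL1 (limma adjusted p 0.0544 to 0.129) and BBC3 (0.0514 to 0.0808) were lost, and the cause was not tested. With a sample left out the count was 5 to 8 in MDA-MB-468 (reported 7), 5 to 6 for the interaction (reported 5) and 10 for each line difference; over the other pathway genes, an analysis chosen after seeing the data, it was 12 to 19 (reported 17) and 39 to 45 (reported 44).

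The sign changes were all in values that passed no test. In MDA-MB-231, BCL2L11 was -0.0078 under quantile scaling and -0.056 to 0.082 with a sample left out. With the length correction, with and without the replicate block, BCL2L1 was -0.0026 and BAX -0.023. With a sample left out, BCL2L1 was -0.026 to 0.022 and BAX -0.028 to 0.046. The interaction of MCL1 was -0.048 under quantile scaling and -0.0033 to 0.043 with a sample left out.

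Same-numbered samples hardly deviated together (correlations between -0.04 and -0.01 for MDA-MB-231, and between 0.02 and 0.03 for MDA-MB-468). In MDA-MB-231, 0 of 8 samples correlated best with their own number, and in MDA-MB-468 it was 6 of 8. A weak pairing by number in MDA-MB-468 can therefore not be excluded. With the replicate block, 1624 genes were called in MDA-MB-231 (2245 without it), and MDA-MB-468 had 7383 (7495 without it). Quantile scaling moved the higher and lower calls of all genes in MDA-MB-231 from 850 and 1395 to 1027 and 1114. BCL2 had 77 to 128 reads per library in MDA-MB-468 in low glucose, where counting error alone gives a coefficient of variation of 9.75%. Losses of single calls among the other pathway genes, counted after seeing the data, stand beside those genes.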
